A study of Mus musculus with 4 samples.

Results

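This report compares the RNA of a sorted fraction of 4T1 tumors, deposited under the label of tumor Tregs, with the RNA of whole tumor, both from mice given Control SMO. The members are 2 of the 4 samples of the series, 1 library on each side, and the whole tumor library of mice given LFPRLR SMO served as a second reference. All mice were female Foxp3+EGFP Balb/c mice, 8 weeks old, which carry a green fluorescent reporter of the Treg transcription factor Foxp3 and had received 4T1 cells, a mammary carcinoma line of Balb/c origin, in the mammary fat pad. Control SMO and LFPRLR SMO, splice-modulating oligomers of which the second is directed at the long form of the prolactin receptor, were given at 100 pmoles/h/mouse for 12 days. RNA of 6 mice was pooled for each library. The sorted fraction came from an additional set of mice whose tumors were dissociated with Accutase before flow sorting on Foxp3 positivity, while whole tumor RNA was extracted without a sort. With 1 library a side there was no replicate check, so every comparison here describes these libraries, with no test, SD or p-value.

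A Treg is a CD4 T cell that restrains other immune cells under the control of Foxp3, and it carries the T cell receptor with its CD3 chains, the interleukin-2 receptor chain Il2ra and the inhibitory receptor Ctla4. A 4T1 tumor also holds carcinoma cells with keratins and claudins, fibroblasts that make collagens, endothelium, and many myeloid cells. Macrophages are marked by lysosomal enzymes, Fc receptors, complement C1q and the receptor of CSF1. Enzymatic dissociation and sorting are known to raise immediate early genes such as *Fos* within cells, as well as some cytokine genes.

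The label was checked against its defining genes first. *Foxp3*, *Cd4*, *Il2ra*, *Cd3e* and *Ctla4* had no assigned transcript in the sorted library, and none of its listed transcripts overlapped the interval of any of the 5 genes. None of the 22 genes of the T cell list had a value there, and 2 had one in whole tumor with Control SMO, *Thy1*, which fibroblasts also carry, at 10.7 and *Tcf7* at 0.803. *Ptprc*, the CD45 antigen that all leukocytes carry, was at an FPKM of 5.98 there, 5.67 in whole tumor with Control SMO and 13.7 in whole tumor with LFPRLR SMO. The values therefore go against the label, and the library is called here the library labelled tumor Tregs. The deposited values of the 2 sorted samples, 1 for each SMO, matched in all 4838 transcripts and were counted once. The headers of both give the same input, named for the control, and which of the sorted samples the values come from was not tested. FPKM, a read level per transcript length and library size, was computed by a different program on each side, and genes without a listed transcript may still have been expressed. The fraction, the animals, the dissociation and sort, the program and its normalization cannot be told apart as sources of any difference below.

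The first comparison asked how much of the whole tumor RNA was represented in the library labelled tumor Tregs. After transcripts of at least 300 bases were assigned to genes, that library listed 3067 genes and whole tumor with Control SMO listed 9551. Of the whole tumor genes, 2635 or 27.6% were also listed in the library labelled tumor Tregs (exact 95% binomial interval 26.7 to 28.5%, which covers the counting of genes only). Against whole tumor with LFPRLR SMO the share was 27.1%. Conversely, 85.9% of the genes of the library labelled tumor Tregs were listed in whole tumor. The share depended on level. With whole tumor genes cut into 5 equal groups by FPKM, it was 11.1% in the lowest group and 60.0% in the highest, which began at an FPKM of 11.5. In the same count, 90.7% of the genes of whole tumor with Control SMO were listed in whole tumor with LFPRLR SMO. The read depth per unit of FPKM, as the median over transcripts, was 0.947 in the library labelled tumor Tregs and 1.88 in whole tumor. Read counts are not given in the sources used here.

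The listed share differed widely between gene lists, as the bar plot of listed shares shows. Of 23 monocyte and macrophage genes listed in whole tumor, 21 were listed in the library labelled tumor Tregs, and of 24 genes of the phagocyte lysosome 23 were. Of 18 fibroblast genes 4 were listed, and of 39 genes of the extracellular matrix 8 were. Endothelial genes (13 in whole tumor), skeletal muscle genes (10) and adipocyte genes (4) were all without a listed transcript. Their median whole tumor FPKM was low, at 4.31, 2.61 and 4.90. In the groups of whole tumor FPKM that hold these levels, 21.8%, 15.3% and 21.8% of all genes were listed, so few listed genes could be looked for in these lists. Some lists also differed at a like level, a comparison that the endothelial, skeletal muscle and adipocyte lists had too few abundant genes to enter. Among genes in the highest of the 5 groups of whole tumor FPKM, 13 of 13 monocyte and macrophage genes and 18 of 18 lysosomal genes were listed, against 4 of 12 fibroblast genes, 8 of 34 matrix genes and 60.0% of all genes of that group.

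**Figure D1:**
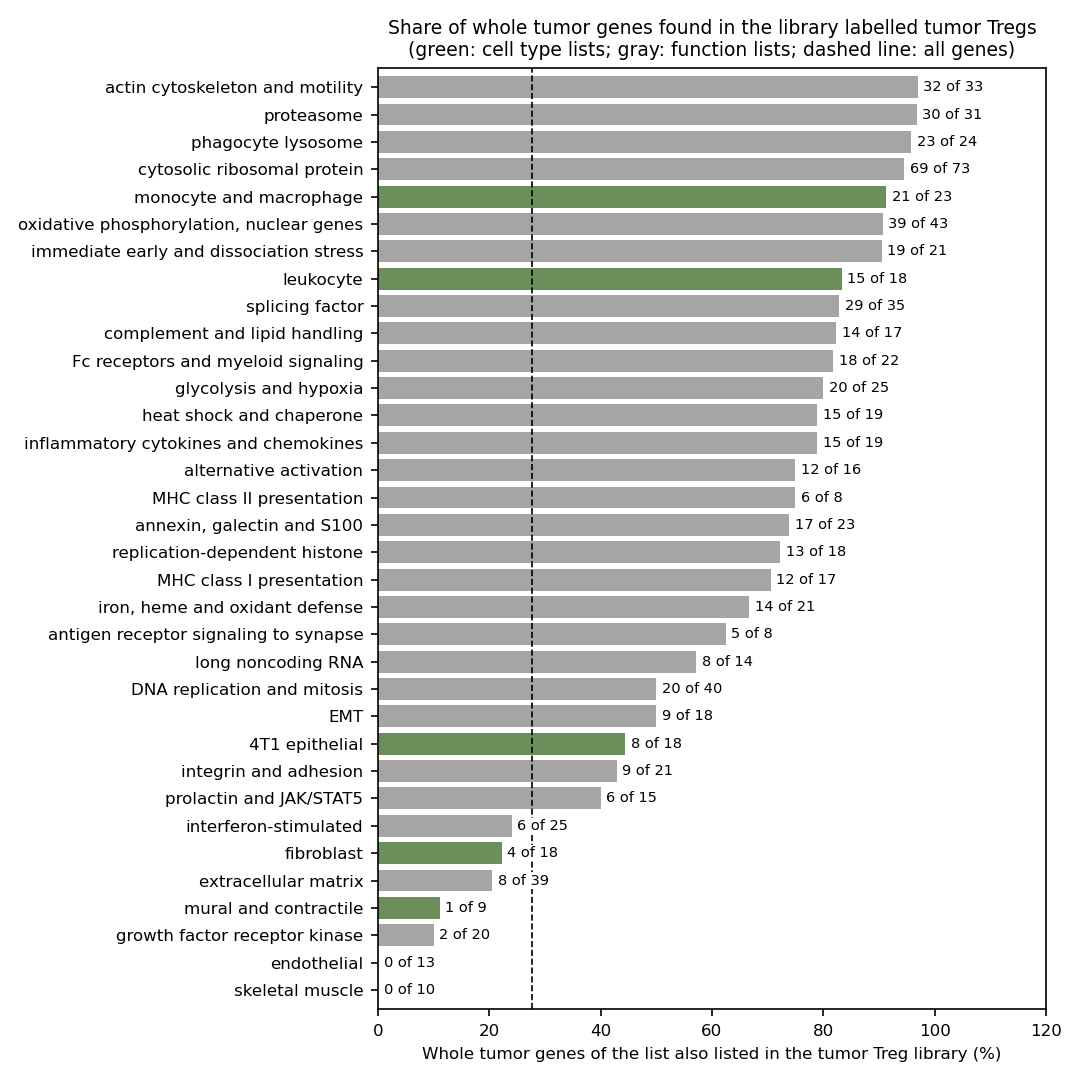
Percentage of the genes of each list in whole tumor with Control SMO that were also listed in the library labelled tumor Tregs (horizontal axis), for lists with at least 8 genes in whole tumor (vertical axis). Bars carry the counts, green bars are cell type lists and gray bars function lists, and the dashed line marks the 27.6% of all genes; the monocyte and macrophage bar stands at 21 of 23 genes and the endothelial bar at 0 of 13.

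For the 2635 genes listed on both sides, the place of each gene was given as its percentile within its own library, from the lowest to the highest FPKM, and the difference is the library labelled tumor Tregs minus whole tumor. Ranks were used because the FPKM scales were not shared. The median FPKM of these genes was 3.30 in the library labelled tumor Tregs and 9.67 in whole tumor. A difference of at least 25 points was counted as higher or lower. By this count 507 genes, 19.2%, were placed higher in the library labelled tumor Tregs and 480, 18.2%, were placed lower. These shares are the reference for every count of list members below. The threshold is arbitrary near its edge, with 25 genes inside and 14 outside by under 1 point on the higher side, and 17 and 22 on the lower side. A gene near the top in whole tumor has no room to be counted as higher. Likewise, a gene below a percentile of 25 in whole tumor has no room to be counted as lower. This limits the counts of lower genes in lists whose members were low in whole tumor.

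The pair of whole tumor libraries gave a measure of how far 2 pools placed the same genes apart. Over the 2540 genes listed in all 3 libraries, 19.3% were placed higher and 18.7% lower in the library labelled tumor Tregs than in whole tumor with Control SMO. Between whole tumor with LFPRLR SMO and with Control SMO the shares were 6.89% and 5.79%. The median absolute difference was 17.2 points for the first pair and 6.83 points for the second. Spearman's rho across these genes, which are not independent replicates, was 0.486 and 0.851 in turn. The whole tumor pair shared its program and extraction but not its treatment, so it is a reference for spread and not a control of the sort.

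**Figure D2:**
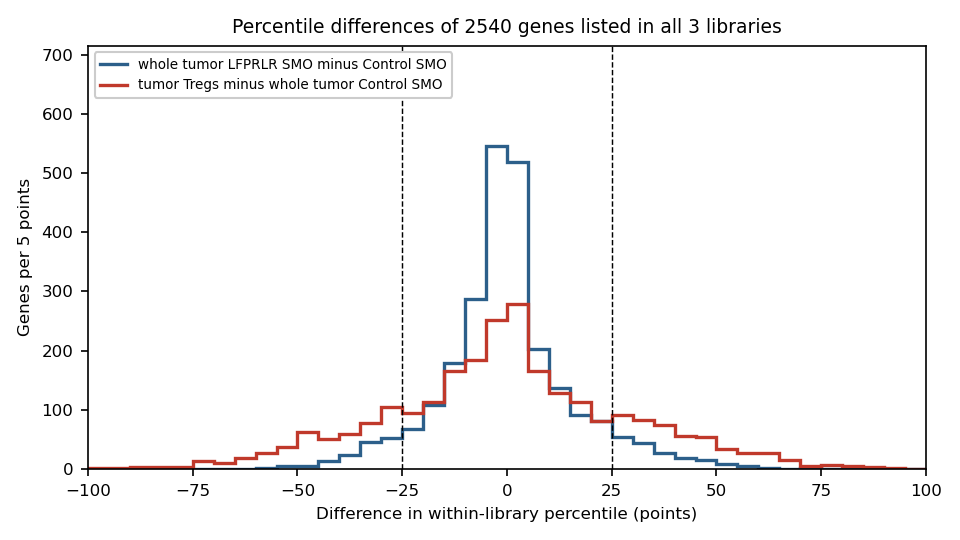
Number of genes (vertical axis) by difference in within-library percentile (horizontal axis, in bins of 5 points) for 2540 genes listed in all 3 libraries. The red line is the library labelled tumor Tregs minus whole tumor with Control SMO and the blue line is whole tumor with LFPRLR SMO minus Control SMO; the dashed lines mark 25 points, beyond which lie 19.3% and 18.7% of genes on the red line and 6.89% and 5.79% on the blue line.

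Genes shared by all leukocytes were placed higher as a group. Of 15 list members listed on both sides, 11 were higher and 0 lower, against 19.2% and 18.2% of all shared genes, with a median difference of 36.1 points. Some members, such as *Was* and *Coro1a* at whole tumor percentiles of 9.09 and 21.9, had no room to be counted as lower. *Coro1a*, an actin-binding protein of leukocytes, was at an FPKM of 24.6 in the library labelled tumor Tregs, 4.63 in whole tumor with Control SMO and 3.34 in that with LFPRLR SMO, a difference of 72.9 points from the Control SMO library. *Ptpn6*, the phosphatase SHP-1, was at 15.5, 6.30 and 5.47 in the same order, 58.7 points higher. *Ptprc* was 43.1 points higher, but 3.02 points against whole tumor with LFPRLR SMO, so its rise rested on the choice of reference. In bulk RNA, fewer cells of a type and less RNA per cell cannot be told apart. *Lcp1*, an actin bundling protein, was already high in whole tumor (30.8, 38.6 and 30.1) and differed by 9.41 points.

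Monocyte and macrophage genes were counted higher where whole tumor held them at a middle level, and stayed near the top where they led whole tumor as well. Of 21 genes listed on both sides, 9 were higher and 0 lower, against 19.2% and 18.2% of all shared genes, with a median of 18.8 points. *Cd14*, the co-receptor for lipopolysaccharide, was at an FPKM of 6.00 in the library labelled tumor Tregs against 2.78 and 3.77 in the whole tumors of Control SMO and of LFPRLR SMO, 62.5 points higher, and *Cd68*, a lysosomal membrane protein, at 11.8 against 6.59 and 3.94. With whole tumor with LFPRLR SMO as the reference, *Cd14* was 54.4 and *Cd68* 69.8 points higher. *Csf1r*, the receptor for CSF1 on which most macrophages depend, was 31.8 points higher, at 14.3 against 12.4 and 7.85. The most abundant members kept their place, with *Apoe*, an apolipoprotein, at 231 against 206 and 121 and 1.97 points higher, and *Lyz2*, lysozyme, at 67.1 against 110 and 76.1 and 3.30 points higher.

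Not every macrophage gene followed. The C1q chains, which open the classical complement pathway, differed by 4.40 points for *C1qa*, 0.873 for *C1qc* and -6.60 for *C1qb*. *Ccr2*, the chemokine receptor of inflammatory monocytes, was at 1.09 against 6.12 and 5.85 and differed by -17.7 points by the summed FPKM. By the exon-weighted value, explained below for *Soat1*, the difference had the opposite sign. The direction for *Ccr2* thus rested on how its transcripts were combined. *Cd163* and *Mertk*, receptors of tissue macrophages, were at 4.79 and 3.39 in whole tumor with Control SMO and had no listed transcript in the library labelled tumor Tregs.

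Fc receptors and the signaling molecules of myeloid cells gave 10 higher and 0 lower of 18 genes, with a median of 29.0 points. Among all shared genes 19.2% were higher and 18.2% lower. *Spi1*, which encodes the myeloid transcription factor PU.1, was at 7.53 against 3.45 and 1.61 in whole tumor, 66.6 points higher. *Fcgr3*, an activating IgG receptor, was at 26.3 against 12.4 and 13.5, 36.2 points higher, whereas the inhibitory receptor *Fcgr2b*, at 17.3 against 32.5 and 20.5, was 8.69 points higher and below the count. *Trem1*, an amplifier of myeloid inflammation, was at 3.69 against 0.998 and had no listed transcript in whole tumor with LFPRLR SMO. *Cebpb*, *Syk*, *Il10ra* and *Cebpa* were listed in whole tumor only, with *Cebpb* at 9.02.

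Inflammatory cytokines and chemokines were placed higher as a group. Of 15 genes listed on both sides, 13 were higher and 0 lower, against 19.2% and 18.2% of all shared genes, with a median of 44.5 points. Between the pair of whole tumor libraries 2 of the list were higher. The 15 genes had a median whole tumor FPKM of 4.83. Members such as *Ccl3* and *Cxcl2*, at whole tumor percentiles of 2.75 and 12.0, had no room to be counted as lower. *Ccl3*, a chemokine for monocytes and T cells, was at an FPKM of 14.5 in the library labelled tumor Tregs, 1.57 in whole tumor with Control SMO and 1.86 in that with LFPRLR SMO, 88.4 points higher. *Cxcl2*, a chemokine for neutrophils, was at 37.5 against 3.21 and was not listed with LFPRLR SMO. Its difference was 84.9 points. Among the interleukin-1 genes, *Il1a* was at 10.1 against 2.76 and 2.88 and *Il1b* at 18.5 against 4.00 and 5.93, 76.4 and 75.9 points higher. Their natural antagonist *Il1rn* was at 4.50 against 2.19 and 3.05, 58.2 points higher, so agonists and antagonist were all placed higher.

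A further 6 genes of that list had a value in the library labelled tumor Tregs but none in whole tumor with Control SMO. They were *Ccl2* at 17.3, *Cxcl3* at 16.3, *Ccl7* at 3.14, *Tnf* at 2.79, *Ccl4* at 0.888 and *Osm* at 0.637. *Ccl2* and *Ccl7*, chemokines for monocytes, were at 2.65 and 2.81 in whole tumor with LFPRLR SMO. In the other direction *Csf1*, *Cxcl10*, *Il18* and *Ccl5* were listed in whole tumor only, *Csf1* at 14.4 and *Cxcl10*, an interferon-induced chemokine, at 5.26. *Ccl12* was the lowest-placed shared member, at 3.69 against 16.6 and 8.21, a difference of -12.3 points.

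Immediate early genes, together with others known to respond to tissue dissociation, gave 11 higher and 0 lower of 19 genes and a median of 27.8 points. Their median FPKM in whole tumor with Control SMO was 2.46, a level at percentile 7.61. Most of the 19 therefore had no room to be counted as lower. *Fos* had the largest difference among the genes ranked for rises. The gene lies on chromosome 12 of mm10 from 85473890 to 85477273. It was at 28.1 in the library labelled tumor Tregs, 1.39 in whole tumor with Control SMO and 1.82 in that with LFPRLR SMO, 94.2 points higher. *Zfp36*, which encodes an RNA-binding protein that shortens the life of cytokine mRNA, was at 27.3 against 2.46 and 4.96, and *Dusp1*, a phosphatase that switches off MAP kinases, at 16.4 against 2.15 and 1.53. *Nr4a1*, a nuclear receptor induced within minutes of stimulation, was at 10.1 against 1.53 and was not listed with LFPRLR SMO. *Fosb*, at 13, and *Gadd45b*, at 6.01, were listed in the library labelled tumor Tregs only.

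The family did not move as a whole. *Junb* was at 28.8 against 23.1 and 12.8, 17.7 points higher, and *Jun* at 6.92 against 12.0 and 6.48, 19.4 points higher, both short of the count. *Myc* was at 3.89 against 13.9 and 11.9, a difference of -4.71 points. *Ier2* and *Egr1* were listed in whole tumor only, *Egr1* at 2.56 after Control SMO and 11.6 after LFPRLR SMO. The sorted cells had been dissociated and the whole tumors had not, and the part of dissociation in these values was not tested.

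The promoters of *Fos*, *Zfp36*, *Cxcl2* and *Il1b* are shown as examples of the immediate early, chemokine and interleukin-1 genes placed higher, chosen among others such as *Ccl3* and *Il1a* that were placed as high. The 250 bases before the RefSeq start are printed from 5′ to 3′ on the coding strand of GRCm38.p6, at chr12:85473640-85473889 on the plus strand for *Fos*, chr7:28379229-28379478 on the minus strand for *Zfp36*, chr5:90903649-90903898 on the plus strand for *Cxcl2* and chr2:129371140-129371389 on the minus strand for *Il1b*. Capitals mark matches to 5 motifs searched on both strands, which were TATAAA for the TATA box, GGGANTTNC for NF-kB, TGANTCA for AP-1, TGACGTCA for the cyclic AMP response element and GAGGAAGT for the core of PU.1 sites. No match overlapped another in these windows.
Fos: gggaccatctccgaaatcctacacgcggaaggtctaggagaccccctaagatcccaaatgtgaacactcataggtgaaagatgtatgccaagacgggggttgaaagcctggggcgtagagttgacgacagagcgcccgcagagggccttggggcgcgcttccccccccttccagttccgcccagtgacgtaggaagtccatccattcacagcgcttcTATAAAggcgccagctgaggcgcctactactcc
Zfp36: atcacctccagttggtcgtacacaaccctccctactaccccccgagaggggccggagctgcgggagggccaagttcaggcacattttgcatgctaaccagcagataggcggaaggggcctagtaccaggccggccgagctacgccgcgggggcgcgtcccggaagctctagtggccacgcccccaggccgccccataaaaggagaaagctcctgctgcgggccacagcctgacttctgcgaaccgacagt
Cxcl2: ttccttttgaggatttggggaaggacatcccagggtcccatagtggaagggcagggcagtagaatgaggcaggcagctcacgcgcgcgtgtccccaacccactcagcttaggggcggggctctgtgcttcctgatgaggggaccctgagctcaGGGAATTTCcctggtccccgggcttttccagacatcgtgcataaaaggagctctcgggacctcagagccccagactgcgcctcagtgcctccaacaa
Il1b: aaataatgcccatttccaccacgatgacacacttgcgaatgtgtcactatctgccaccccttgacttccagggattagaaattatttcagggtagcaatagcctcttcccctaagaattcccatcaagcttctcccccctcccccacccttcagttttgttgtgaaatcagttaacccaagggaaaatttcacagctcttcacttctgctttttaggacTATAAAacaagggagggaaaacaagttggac
The matches were a TATA box that begins 33 bases before the start of *Fos* and 31 bases before that of *Il1b*, and an NF-kB sequence 97 bases before that of *Cxcl2*. The window of *Zfp36* held none of the 5. The TATA box letters occurred in 13% of all 27025 promoters of this length in the table and the NF-kB letters in 3.59%, and a match is a description of the letters and not of a bound site. A comparison of motif shares between the genes placed higher and lower is void, since 394 of the 507 and 378 of the 480 had a promoter in the table, under 80% of each.

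The 15 genes with the largest rises held further myeloid and activation genes. *Rgs1*, a regulator of chemokine receptor signaling, was at 55.5 in the library labelled tumor Tregs against 2.45 in whole tumor with Control SMO, 91.2 points higher, and was not listed with LFPRLR SMO. *Tnfrsf9*, which encodes the costimulatory receptor 4-1BB and belongs to the Treg list, was at 9.56 against 1.57 and 1.93, and *Il1r2*, a decoy receptor for interleukin-1, at 9.48 against 1.61 and 1.86. *Adam8*, a membrane protease of leukocytes, was at 14.1 against 2.47 and 5.66. *Myo1f*, a myosin of leukocytes, and *Tcn2*, which carries vitamin B12, were in the group too. *Plk3*, a stress kinase, was 78.4 points higher, but 49.0 points against whole tumor with LFPRLR SMO. *Snhg17*, a host gene of small nucleolar RNAs, rested on the choice of reference. It was at 16.9 against 1.10 and 8.41, a difference of 91.7 points from whole tumor with Control SMO but 44.0 points from whole tumor with LFPRLR SMO.

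**Figure D3:**
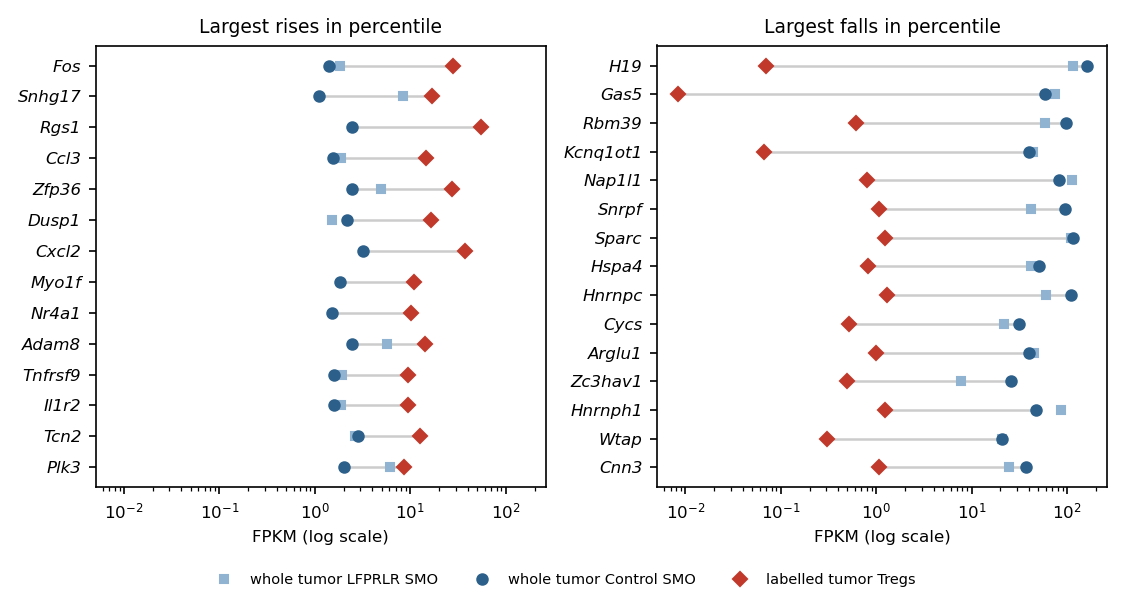
FPKM (horizontal axis, log scale) of 14 of the 15 genes with the largest rises (left) and the 15 with the largest falls (right) in percentile, in the library labelled tumor Tregs (red diamonds), whole tumor with Control SMO (dark blue circles) and whole tumor with LFPRLR SMO (light blue squares). A missing square is a gene not listed with LFPRLR SMO; *Fos* stands at 28.1 against 1.39, and *Gas5* at 0.00834 against 58.3, where the sorted value rests on almost no reads.

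Genes of the phagocyte lysosome were placed higher or kept their place. Of 23 listed on both sides, 6 were higher and 0 lower, against 19.2% and 18.2% of all shared genes, with a median of 13.4 points. *Atp6v1b2*, a subunit of the proton pump that acidifies lysosomes, was at 9.08 against 8.71 and 4.42, 38.6 points higher, and *Gusb*, beta-glucuronidase, at 4.21 against 6.07 and 4.46, 30.9 points higher. The cathepsins were high in all 3 libraries, with *Ctsd* at 67.8 against 37.0 and 30.7 and *Ctsb* at 31.2 against 50.9 and 42.6. *Psap*, the precursor of the saposins that aid lipid breakdown, was at 125 against 55.7 and 31.4.

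Complement and lipid handling genes divided, with 5 higher and 1 lower of 14, against 19.2% and 18.2% of all shared genes, and a median of 2.30 points. *Cfp*, properdin, which stabilizes the alternative pathway, was at 9.05 against 4.76 and 3.95, 61.7 points higher. *Trem2*, a lipid-sensing receptor of macrophages, was at 4.79 against 2.29 and 2.54, 59.2 points higher, and *Plin2*, a coat protein of lipid droplets, at 19.2 against 9.46 and 8.48, 44.4 points higher. *Soat1*, which esterifies cholesterol, was lower by the summed FPKM at 3.59 against 28.3 and 12.1, a difference of -25.9 points, but 18.1 points higher by the exon-weighted value, in which each transcript counts by the share of the gene's longest annotated transcript that it covers.

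Genes of alternative macrophage activation and matrix remodeling gave 4 higher and 0 lower of 12, against 19.2% and 18.2% of all shared genes. The median was 13.9 points. *Arg1*, arginase 1, which depletes arginine and lies on chromosome 10 from 24915221 to 24927484, was among the 15 most abundant genes of the library labelled tumor Tregs, at 171 against 23.1 in whole tumor with Control SMO and 16.9 in that with LFPRLR SMO. Its percentile was 99.8 against 78.1, so that it could have gained hardly more than the 21.6 points between them. *Mmp12*, macrophage elastase, was at 22.4 against 10.3 and 8.86 and *Vegfa*, the angiogenic factor, at 8.42 against 6.12 and 5.21, 41.8 and 50.6 points higher. *Spp1*, osteopontin, was near the top of every library, at 144 against 602 and 534. *Tgfb1*, at 8.84 against 23.4 and 5.13, differed by 5.12 points.

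Of the genes of iron, heme and oxidant defense, 3 of 14 were higher, a share near the 19.2% of all shared genes, and 0 were lower, with a median of 4.93 points. *Hmox1*, heme oxygenase 1, was at 43.1 against 6.68 and 5.97, 62.2 points higher. The ferritin chains were among the most abundant genes of the library labelled tumor Tregs, *Fth1* at 328 against 498 and 276 and *Ftl1* at 311 against 93.6 and 93.5, and differed by 0.417 and 5.01 points. *Cp*, the ferroxidase ceruloplasmin, was at 79.0 and 82.2 in whole tumor and was not listed on the sorted side.

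Antigen presentation and interferon genes gave counts of higher genes near or under the 19.2% of all shared genes. Of 6 MHC class II genes, 1 was higher and 0 lower, with the invariant chain *Cd74* at 34.0 against 46.2 and 37.4. Of 12 MHC class I genes, 1 was higher and 2 lower, with a median of -5.50 points, and *B2m*, beta-2 microglobulin, was at 49.1 against 298 and 180. Of 25 interferon-stimulated genes in whole tumor, 6 were listed in the library labelled tumor Tregs, near the 27.6% of all genes, with 0 higher and 2 lower. *Ifitm3* at 38.2, *Irgm1* at 16.4 and *Gbp2* at 14.3 were among those without a listed transcript there.

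Genes of carcinoma cells that were listed on both sides were placed lower as a group. Of 18 genes of the 4T1 epithelial list in whole tumor, 8 or 44.4% were listed in the library labelled tumor Tregs, above the 27.6% of all genes. In the highest of the 5 groups of whole tumor FPKM, 5 of 7 were listed, against 60.0% of all genes of that group. Of the 8 genes, 0 were higher and 5 lower, against 19.2% and 18.2% of all shared genes, with a median of -31.4 points. *Krt8*, a keratin of simple epithelia, was at 2.45 in the library labelled tumor Tregs, 51.0 in whole tumor with Control SMO and 49.1 in that with LFPRLR SMO, and its partner *Krt18* was at 11.3, 124 and 112. *Krt8* was 62.5 points lower, whereas *Krt18* differed by -8.27 points, so that the paired keratins kept different places. *Cldn4*, a tight junction protein, was at 0.440 against 12.0 and 9.85, 53.0 points lower. *Epcam*, the epithelial adhesion molecule, at 47.7 and 53.3 in whole tumor, had no listed transcript. Epithelial RNA was thus lower in place but not absent from the list.

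A smaller share of stromal genes was listed, 22.2% of fibroblast genes and 20.5% of matrix genes in whole tumor. Fibroblast genes gave 0 higher and 2 lower of 4, and matrix genes 0 higher and 3 lower of 8, with a median of -17.4 points. Among all shared genes 19.2% were higher and 18.2% lower. The 4 fibroblast genes, at whole tumor percentiles from 96.1 to 98.6, had no room to be counted as higher. The 8 matrix genes had a median whole tumor FPKM of 186, so many of them had no room either. *Sparc*, a collagen-binding matrix protein, was at 1.23 against 116 and 110, 80.0 points lower, and *Col1a2* at 3.18 against 224 and 127, 50.8 points lower. *Col1a1*, at 10.9 against 197 and 206, differed by -10.5 points. *Postn*, periostin, at 141 and 134 in whole tumor, *Col12a1* at 109 and 135 and *Col5a2* at 96.3 and 110 had no listed transcript. Among matrix genes, *Fn1*, fibronectin, which macrophages also make, kept its place, at 111 against 174 and 189, a difference of 2.13 points, as did *Spp1*.

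Vascular, contractile and other parenchymal genes were almost all unlisted. They were also low in whole tumor, with a median FPKM of 4.31 for endothelial genes and 3.93 for mural and contractile genes. Among 9 mural and contractile genes in whole tumor, *Tpm1*, a tropomyosin, was the 1 listed, at 1.89 against 37.0 and 68.5, 63.1 points lower. The endothelial genes without a listed transcript included *Eng* at 17.7, *Flt1* at 8.76 and *Cdh5* at 6.92 in whole tumor with Control SMO. *Fabp4*, a fatty acid carrier of adipocytes and capillaries, at 17.2, and the muscle gene *Tnnt3*, at 7.65, were also without one. Of 20 growth factor receptor kinases in whole tumor 2 were listed, *Csf1r* and *Axl*, and *Axl*, a receptor that binds Gas6, was at 2.90 against 38.9 and 26.3, 47.0 points lower.

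Other blood cell lists were small. Of 5 neutrophil genes in whole tumor 3 were listed, 0 higher and 0 lower, and *Mmp8* at 2.65 and *Cxcr2* at 0.421 had a sorted value only. *Mmp9*, gelatinase B, was at 101 against 33.2 and 55.8, and the calprotectin genes *S100a8* and *S100a9* were at 5.59 against 12.7 and 12.4 and at 3.90 against 21.4 and 31.6. Of 13 dendritic cell genes 9, such as *Flt3*, *Zbtb46* and *Xcr1*, had no value on the sorted side or in whole tumor with Control SMO. *Fscn1*, at 12.3, and *Cd83* were listed in whole tumor only. The other 2 were both higher, *Itgax* (CD11c) at 15.5 against 3.68 and 4.17, 76.4 points higher, and *Irf8* 38.5 points higher. *Pf4*, platelet factor 4, was at 25.8 against 6.19 and 3.19, 62.8 points higher. A further 4 genes of the erythrocyte and platelet list were listed on the sorted side only, of which *Hba-a1* and *Hba-a2* are near-identical copies whose separate values are uncertain. *Ighm* was the only B and plasma cell gene on both sides, at 3.81 against 2.96 and 1.87. NK cell and mast cell genes had no value in the library labelled tumor Tregs, and 1 gene of each was listed in whole tumor.

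Of the 22 genes of the Treg list, 15 had no value in the library labelled tumor Tregs or in whole tumor with Control SMO. Beside genes of the label, *Icos*, *Tigit*, *Tnfrsf18*, *Tnfrsf4* and *Ccr8* were among them. Of the 7 genes of the list in whole tumor, 5 were listed on the sorted side, 2 higher and 1 lower. *Tnfrsf9* is described above. *Entpd1*, the ectoenzyme CD39, was 26.4 points higher at 2.74 against 2.45 and 8.08, but differed by -7.37 points on the exon-weighted scale. *Nt5e*, CD73, was at 4.70 against 74.1 and 17.8, 27.9 points lower, and by -6.68 points exon-weighted. *Capg* and *Prdm1*, which macrophages also express, differed by 17.2 and 23 points. *Ikzf2* and *Lrrc32* were listed in whole tumor only. Of the genes that link the antigen receptor to the synapse, 5 of 8 were listed, 2 higher (*Was* and *Csk*) and 0 lower. *Prlr* was not listed in any library. Of the prolactin and JAK/STAT5 genes 6 of 15 were listed, 1 higher, *Socs3*, at 7.40 against 3.61 and 3.04, and 1 lower, *Ccnd1*, cyclin D1, at 2.56 against 48.3 and 38.5.

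**Figure D4:**
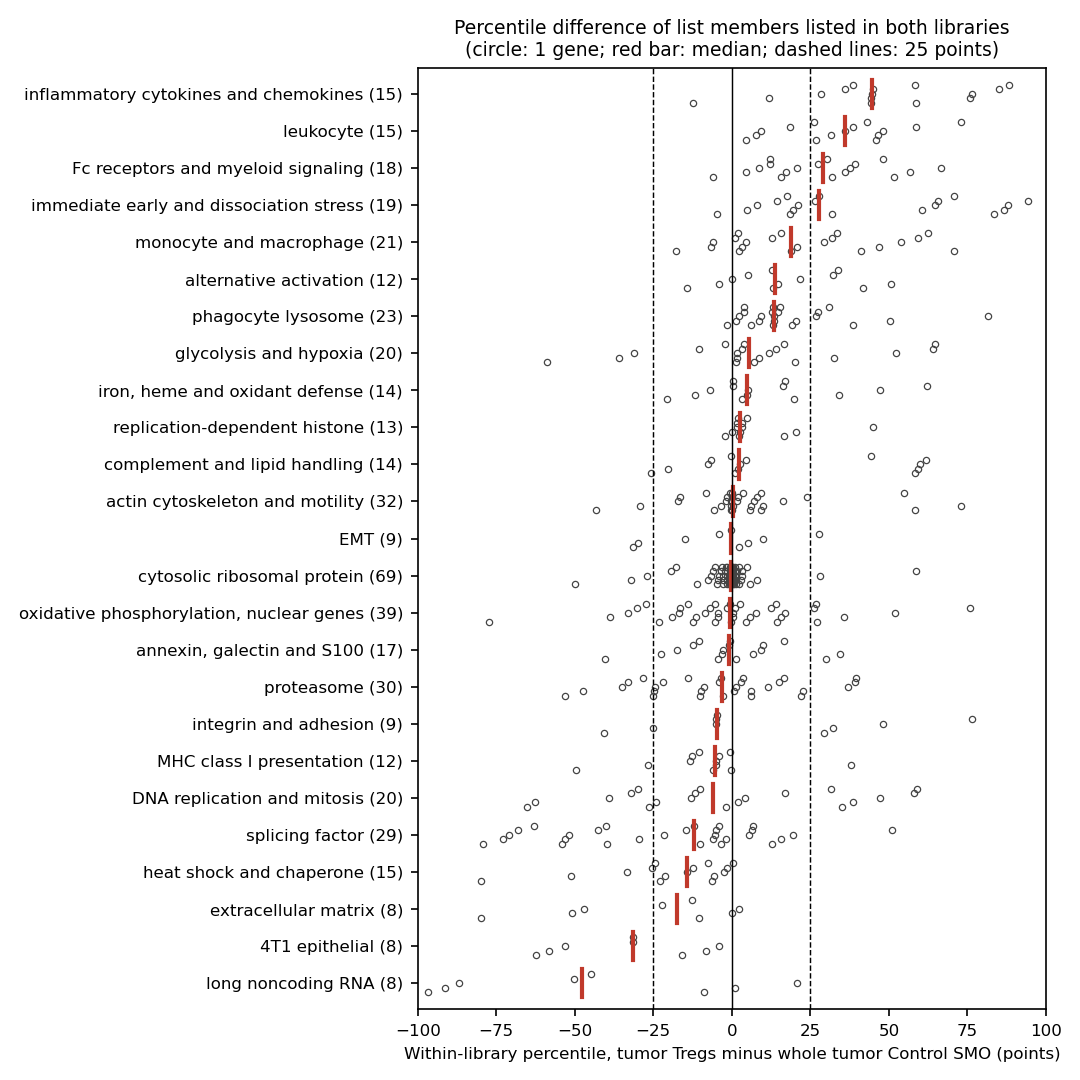
Difference in within-library percentile (horizontal axis, points; library labelled tumor Tregs minus whole tumor with Control SMO) of each list member listed in both libraries, for lists with at least 8 such genes (vertical axis, number of genes in parentheses). Each circle is 1 gene, red bars are medians and dashed lines mark 25 points; medians run from 44.5 for inflammatory cytokines and chemokines to -47.6 for long noncoding RNA, which was -4.60 over the 4 genes with a sorted FPKM of at least 1.

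Noncoding RNAs and RNA-processing genes were among the largest falls. *H19*, an imprinted noncoding RNA of growing cells on chromosome 7 of mm10 from 142575529 to 142578143, was at 0.0699 in the library labelled tumor Tregs, 160 in whole tumor with Control SMO and 115 in that with LFPRLR SMO, 96.6 points lower. The sorted value of *H19* stood for 173 read bases (coverage times length), and that of *Gas5*, at 0.00834 against 58.3 and 74.6, for 20.2 read bases. Such values are close to none. Of 8 long noncoding RNAs on both sides 0 were higher and 5 lower, with a median of -47.6 points. The median was -12.7 points exon-weighted, and -4.60 points over the 4 genes with a sorted FPKM of at least 1. *Kcnq1ot1*, 86.9 points lower by the sum, was broken into 23 transcripts in whole tumor and differed by -6.21 points exon-weighted. *Malat1*, the abundant nuclear RNA, kept its place, at 81.7 against 247 and 333.

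Splicing factors gave 1 higher and 12 lower of 29, with a median of -12.0 points, and 1 and 7 by the exon-weighted value. *Hnrnpc* was at 1.30 against 111 and 59.3, 79.1 points lower, *Hnrnph1* at 1.24 against 47.1 and 86.7, 72.9 points lower, and *Srsf1* at 1.22 against 24.2 and 13.5, 63.0 points lower. Exon-weighted, these falls were 43.6, 54.6 and 34.7 points in size. The core particle gene *Snrpb* went the other way, at 9.05 against 6.33 and 6.41, 51.0 points higher, while *Snrpf*, of the same ring of proteins, was at 1.08 against 95.2 and 42.0, 80.9 points lower. *Tra2a*, at 66.8 and 64.3 in whole tumor, was not listed. *Rbm39*, *Arglu1* and *Wtap*, which also act in RNA processing, were among the 15 largest falls.

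Heat shock and chaperone genes gave 0 higher and 4 lower of 15, against 19.2% and 18.2% of all shared genes, with a median of -14.4 points. *Hspa4* was at 0.830 against 50.9 and 41.6, 79.7 points lower, and the co-chaperone *Dnaja1* at 2.73 against 34.1 and 51.1, 51.3 points lower. *Hspa8*, the constitutive Hsc70, was at 70.9 against 316 and 253 and differed by 0.304 points. The inducible *Hspa1b*, at 0.975 against 6.35 and 13.3, differed by -21.1 points. Among other large falls were *Cycs*, cytochrome c, at 0.521 against 31.5 and 22.0, *Nap1l1*, a histone chaperone, at 0.794 against 81.9 and 113, *Cnn3*, a calponin, and *Zc3hav1*, an antiviral RNA-binding protein, whose difference of -74.3 points was -38.3 points from whole tumor with LFPRLR SMO.

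Cytosolic ribosomal protein genes mostly kept their place. Of 69, 2 were higher and 3 lower, with a median of -0.190 points, against 19.2% and 18.2% of all shared genes. Their median whole tumor FPKM was 168, so many had no room to be counted as higher, which limits the comparison with that first share. Ribosomal protein genes have many processed pseudogenes, so their separate values are uncertain, and *Rpl21* and *Rpl29*, at 644 and 173 in whole tumor, had none on the sorted side. Actin cytoskeleton genes gave 3 higher and 2 lower of 32, and *Actb* was at 440 against 498 and 401. The 32 had a median whole tumor FPKM of 32.9, and many of them had no room to be counted as higher either. The counts of other lists of common cell functions lay nearer to those shares of all genes. Of 39 nuclear oxidative phosphorylation genes 6 were higher and 5 lower, with a median of -0.607 points and a range from -77.3 to 75.8 points. Proteasome genes gave 3 higher and 6 lower of 30. Glycolysis and hypoxia genes gave 4 higher and 3 lower of 20, with the glucose transporter *Slc2a1* at 16.2 against 7.64 and 7.48 and the lactate exporter *Slc16a3* at 6.59 against 3.11 and 4.40 among the higher, and *P4ha1*, a collagen prolyl hydroxylase, 58.9 points lower.

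Genes of DNA replication and mitosis gave no stable direction. All 40 were listed in whole tumor and 20 in the library labelled tumor Tregs, 6 higher and 6 lower, with a median of -6.01 points. Exon-weighted the counts were 0 and 7, with a median of -14.7 points, and against whole tumor with LFPRLR SMO they were 8 and 3, with a median of 9.42 points. *Mki67*, the proliferation antigen, was at 1.92 against 36.7 and 30.8, 62.7 points lower, whereas *Ccnb1*, cyclin B1, was at 6.00 against 3.57 and 3.20, 58.0 points higher. Replication-dependent histone genes, whose copies share sequence and are uncertain singly, gave 1 higher and 0 lower of 13, with a median of 2.62 points. The remaining lists were mixed. Annexin, galectin and S100 genes gave 2 higher and 1 lower of 17, EMT genes 1 higher and 2 lower of 9, and integrin and adhesion genes 4 higher and 1 lower of 9, the higher ones being the leukocyte integrins *Itgax*, *Itgb2* and *Itgam* and also *Itgb5*.

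The genes placed higher and lower differed in other properties. The genes placed higher had a median GC content of 52.4% and a median of 8 exons in the longest annotated transcript, those placed lower 46.8% and 6, and all shared genes 49.8% and 6. In whole tumor, 57.9% of the genes placed lower had 2 or more assigned transcripts, against 35.3% of those placed higher and 42.3% of all. In the library labelled tumor Tregs the order was the opposite, with 6.88%, 39.1% and 18.8%. Summing over transcripts raises the FPKM of a gene listed in parts. Of the genes placed lower, 21.9% were under an FPKM of 1 in the library labelled tumor Tregs, against 12.5% of all shared genes. The part of GC content and of transcript number in the calls was not tested beyond the exon-weighted and 1-transcript values given here and under the alternatives.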

How the data were processed

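The authors aligned rRNA-depleted reads to mm10 and deposited transcript lists. Those of whole tumor give an FPKM and coverage per Cufflinks transcript without gene names, and a score relative to the most abundant transcript of its assembled gene, which the authors' program wrote and which was not used here. Those of the sorted samples were made with StringTie 1.2.3 and a reference annotation, per the file headers, and give coverage, FPKM and TPM. The submitters' processing notes also name HISAT2 2.0.4 and Cuffdiff 2.0.2. The version of Cufflinks and the read counts are not given in the sources used here.

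Transcripts of at least 300 bases were assigned to GENCODE M21 genes (GRCm38) by deposited symbol, a shared intron, or 50% of exon bases on the same strand. In the library labelled tumor Tregs 2118 transcripts were placed by symbol, 1375 by intron and 348 by exons, and 152 had no gene. In whole tumor with Control SMO 14769 were placed by intron and 3788 by exons, and 3718 had none. FPKM was summed per gene, and *Rn45s* and small RNAs were dropped. Percentiles were taken over genes listed in both libraries. Read bases are coverage times length. The named genes were the 15 largest rises and falls (FPKM of at least 5 in a library, a transcript of at least 500 bases, no predicted, mitochondrial or small RNA genes), the 15 most abundant on the sorted side, the 15 most abundant of whole tumor without a value there, 10 of the sorted side without a whole tumor value, up to 4 by level and by difference each way per list, and the genes of the label. A few named genes are not reported here. The members and gene lists were chosen with earlier results of these data known. The ranking was tested on simulated data. Promoter sequences are RefSeq's (GRCm38.p6). Python 3.11.15, numpy 2.4.6, pandas 2.3.3, scipy 1.17.1 and matplotlib 3.10.9 were used.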

Additional observations from a re-analysis of the deposited data

How the results depend on the processing

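No paired analysis was possible because each group is 1 pooled library. The share of whole tumor genes listed in the library labelled tumor Tregs, 27.6%, was 30.6% with no minimum length, 23.2% with transcripts of at least 500 bases and 39.6% among genes with a whole tumor FPKM of at least 5. It was 24.1% with a sorted FPKM of at least 1, an alternative chosen after seeing the data. The counts of 507 genes higher and 480 lower were 1763 and 2269 when the 9983 genes of either library were ranked with unlisted genes tied at the bottom, and 246 and 242 at 40 points. For a log2 ratio centred on its median and called at 2, they were 220 and 228 with a pseudocount of 0.1 and 115 and 155 with a pseudocount of 1. Over the 1334 genes with 1 transcript in each library, chosen after seeing the data, they were 218 and 183. Under the other alternatives, which were whole tumor with LFPRLR SMO, both other lengths, assignment by intron or symbol only, whole tumor minimums of 1 and 5, the most abundant transcript, the exon-weighted value, and, chosen after seeing the data, a sorted FPKM of at least 1 (476 and 459 of 2306 genes) and protein-coding genes only, both counts were within 1.5 times of those given. Of 7 lists whose median was at least 25 points in size, the sign was the same in all 82 alternatives and the median stayed at that size in 74. Over all 32 lists with a median, 8 of 373 medians lay outside the range that the spread of the members gives. With 1 library a side and no read counts, neither the precision of a percentile nor the floor of a missing gene can be given.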

Other observations

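The gene of highest FPKM in the library labelled tumor Tregs was *Lars2*, which encodes the mitochondrial leucyl-tRNA synthetase, at 48733. The value came from a single transcript of 454 bases on chromosome 9 of mm10, from 123461792 to 123462245, within the gene. The longest annotated transcript of *Lars2* has 3894 bases, and the exon-weighted value was 5682. The FPKM is thus not a level of the whole gene, and the origin of the reads on this stretch was not tested. *Lars2* led both whole tumor libraries as well, at 30644 and 29413. After it came *Actb*, *Fth1*, *Ftl1*, *Apoe*, *Eef1a1*, *Arg1*, *Spp1*, *Tpt1*, *Psap*, *Fn1*, *Mmp9*, *Rpl41*, *Rpl27a* and *Rps26*. *Rn45s*, left out of the ranks, was at 211498.

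None of the 13 named genes of the mitochondrial genome had an assigned transcript in any of the libraries compared. In the library labelled tumor Tregs 3 transcripts lay on the mitochondrial genome, of 2643, 5535 and 6785 bases at an FPKM of 7980, 281 and 107, the first above every gene but *Lars2*, and in whole tumor with Control SMO 0 did.

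Beside *Ccl2*, abundant members of the 432 genes without a value in whole tumor with Control SMO were *Rps14* at 44.4, *Tuba1b*, a tubulin, at 24.3, *Rpl37* at 24.1 and the histone genes *Hist2h2aa1*, *Hist2h2aa2*, *Hist2h3c1*, *Hist1h2ab* and *Hist2h3c2* at 18.1 to 28.7. *Rps14* and *Rpl37* were at 108 and 29.3 in whole tumor with LFPRLR SMO, so a missing value is not a level of 0. In the other direction, the most abundant whole tumor genes without a sorted value that are not described above were *Rpl17* at 413, *Hmgb1*, a chromatin protein, at 167, *Nedd4*, a ubiquitin ligase, at 98.4, *Acsl4*, which activates long fatty acids, at 88.1, *Igfbp7* at 83.4, *Tbrg1* at 75.4, *Sumo2*, a small protein modifier, at 75.0, and *Tnnt2*, cardiac troponin T, at 64.1.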
